A study of Mus musculus with 14 samples.

Results

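The genes described are the core of the extrinsic route of apoptosis: Fasl and Tnfsf10 (death ligands), Fas (a death receptor), Fadd (an adaptor), Casp8 (an initiator caspase) and Cflar (its inhibitor, c-FLIP). They were taken by their symbol in the platform's annotation and make up 6 of 19937 genes with a single name. They lie on 8 of 34760 probe sets, 3 of them for Cflar and 1 for each of the others. No probe set that carries several names holds any of them.

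The study measured RNA of sorted mouse CD8+ effector T cells on 14 single-colour arrays, 1 per sample. All samples were taken on day 6 of infection with Listeria that carries ovalbumin, and all are labelled C57BL/6J. The donor cells came from fetal liver chimeras and were moved into congenic recipients the day before infection. OT-I, the T cell receptor transgene that recognises an ovalbumin peptide, is named for every group except Id2KOBimKO, whose labels leave it out.

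The groups were WT KLRG1hi (wild-type cells with much of the inhibitory receptor KLRG1, 3 arrays), Id2KO KLRG1lo (2 arrays), Id2KOBimKO KLRG1lo (2 arrays), BimKO KLRG1lo (2 arrays) and WT KLRG1lo (5 arrays). Id2 is an inhibitor of E proteins, and Bim, encoded by Bcl2l11, starts apoptosis at mitochondria. The labels do not say how the genes were deleted, whether arrays came from separate mice or whether mice were pooled, so the p-values reflect only how these samples spread, which may be technical. No KLRG1hi cells lacking Id2 or Bim were analysed here, so the KLRG1 comparison was made in WT cells only.

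A death ligand on a killer T cell binds its receptor on a target cell or on a neighbouring T cell. The receptor then gathers Fadd, which brings in Casp8, and Casp8 activates itself and starts the caspase cascade. Cflar resembles Casp8 but lacks its protease activity, and it limits this step. In effector CD8+ T cells Fasl serves in killing, and Fas and Fasl serve in removing activated lymphocytes.

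The promoters of the ligand and receptor whose signals parted the groups most clearly are shown, from RefSeq on build GRCm38.p6, because Id2 acts through E proteins and these bind the E-box. The Fasl window is chr1:161788446-161788745 on the minus strand and the Fas window is chr19:34290409-34290708 on the plus strand. Both run from 250 bases before the annotated gene start to 50 bases after it. Capitals mark each E-box, searched as CANNTG, which reads the same on both strands. The search took any inner bases, and which of these forms E proteins bind was not examined.
Fasl: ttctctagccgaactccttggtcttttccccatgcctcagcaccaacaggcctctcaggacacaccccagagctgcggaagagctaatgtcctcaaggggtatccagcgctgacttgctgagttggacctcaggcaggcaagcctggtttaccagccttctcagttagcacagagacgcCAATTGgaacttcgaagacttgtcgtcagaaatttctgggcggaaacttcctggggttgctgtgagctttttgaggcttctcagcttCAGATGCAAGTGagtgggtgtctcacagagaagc
Fas: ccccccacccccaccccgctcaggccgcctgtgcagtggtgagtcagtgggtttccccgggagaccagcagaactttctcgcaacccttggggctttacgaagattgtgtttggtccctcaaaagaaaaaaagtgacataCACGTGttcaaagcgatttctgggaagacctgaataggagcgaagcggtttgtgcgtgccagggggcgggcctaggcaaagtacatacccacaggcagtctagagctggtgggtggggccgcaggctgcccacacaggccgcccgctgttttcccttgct
The Fasl window held 3 E-boxes, at -71, 16 and 22 relative to the gene start, and the last of these lie side by side without overlap. The Fas window held 1, CACGTG, at -110. Windows of all 6 genes were found: Casp8 also held 3 E-boxes, Tnfsf10 (CAGGTG) and Fadd (CAGCTG) held 1 each, and Cflar held 0. Of 27025 mouse promoter windows of this length, 72.1% held an E-box and 17.5% held at least 3. The T-box core TCACACC, searched on both strands, was in 3.96% of these windows and in 0 of the 6. A match of letters is a description of the window, and no binding was measured.

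Values below are log2 of the deposited linear signal unless a linear scale is named. The median linear signal of an array lay between 49.2 and 56.8, and array numbers limit the precision. Klrg1 averaged 11.04 ± 0.50 in WT KLRG1hi cells (SD, n = 3), against 6.27 ± 0.29 in WT KLRG1lo cells (SD, n = 5). Id2 averaged 9.80 ± 0.10 in Id2KO cells (SD, n = 2), against 10.93 ± 0.20 in WT KLRG1lo cells (SD, n = 5), and fell by 1.13 (limma adjusted p = 0.0162). Bcl2l11 averaged 7.51 in BimKO cells and 7.60 in WT KLRG1lo cells, a difference of -0.09 (SE 0.18, limma adjusted p = 0.882), so its probe set did not show the BimKO label. Nor did it in Id2KOBimKO cells, which averaged 7.80, a difference of 0.20 over WT KLRG1lo cells (SE 0.18, limma adjusted p = 0.785). Where its probes lie relative to the deletion was not examined. The Id2KO arrays also stood apart in Xist, at 4.73 ± 0.37 (SD, n = 2) against group means of 8.90 to 10.11 elsewhere, and in Eif2s3y, at 7.79 ± 0.57 (SD, n = 2) against 3.04 to 3.45 elsewhere. Donor sex and the Id2KO label cannot be told apart in Id2KO over WT, and this enters the mean Id2 effect and the interaction too, where Xist and Eif2s3y also passed. The cell type label was checked against Cd8a, whose group means were 11.4 to 11.8.

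Fasl, the ligand of Fas, was the one gene of the 6 whose level passed a test. It rose in WT KLRG1hi cells, where its signal was 7.68, 7.91 and 8.48, against 6.66, 7.17, 6.60, 6.66 and 6.51 in WT KLRG1lo cells. Each KLRG1hi array was above each WT KLRG1lo array, with no overlap. The log2 difference was 1.30 (SE 0.26, 95% interval 0.76 to 1.85, limma adjusted p = 0.0185), which is 2.47-fold (1.70 to 3.59). Of the 14438 genes tested, 0.942% passed in this comparison and 0.679% passed as higher, and the groups did not overlap for 4.18%. In bulk samples like these, fewer cells of a type and less RNA per cell cannot be told apart.

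The call for Fasl in WT KLRG1hi cells rested on few arrays. Leaving out 1 array at a time gave differences of 1.07 to 1.48 and limma adjusted p of 0.00239 to 0.0857. The adjusted p was 0.0857 without KLRG1hi array 2 (difference 1.36), 0.0671 without KLRG1hi array 3 (difference 1.07) and 0.0584 without WT KLRG1lo array 5 (difference 1.25). In none of these fits did Fasl turn direction.

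**Figure D1:**
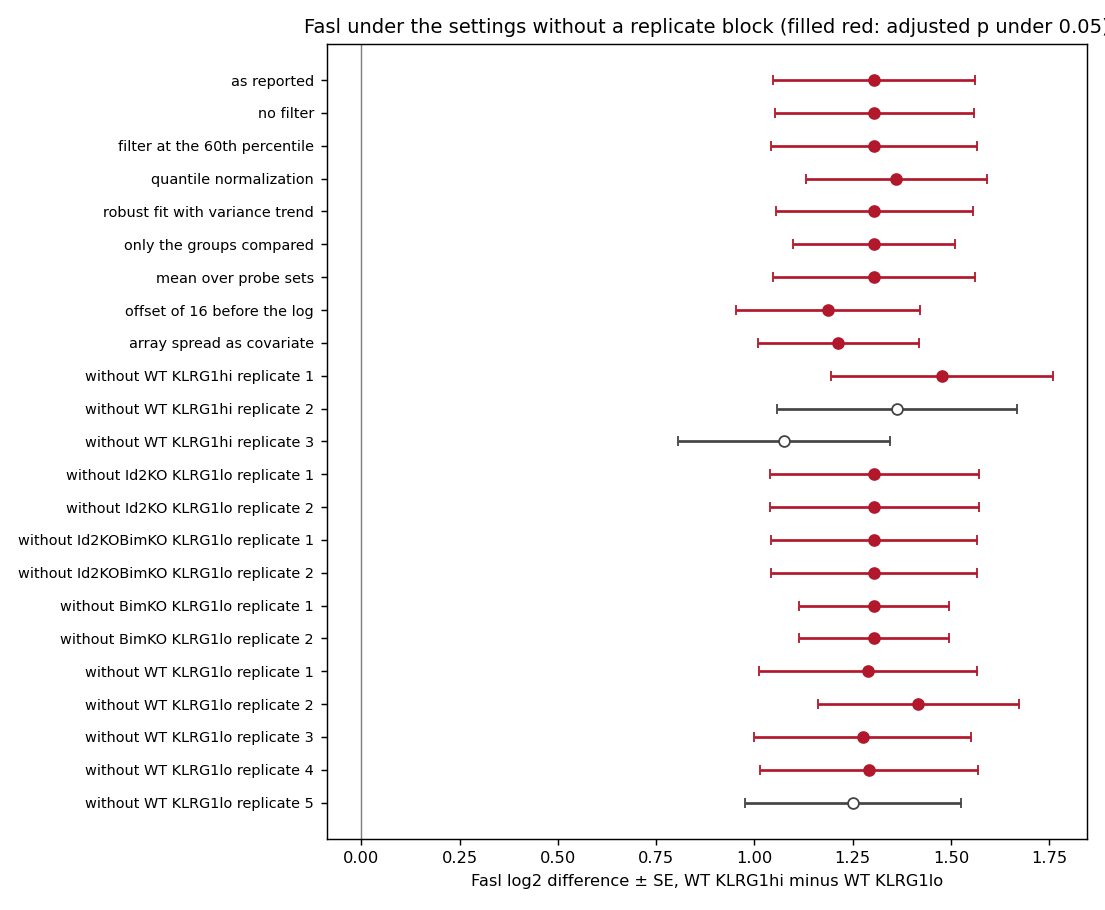
Fasl log2 difference (x axis), WT KLRG1hi minus WT KLRG1lo, with its standard error as bars, under each setting or left-out array (y axis); the fit with a replicate block, in which Fasl did not pass, is not drawn. Filled red points have a limma adjusted p under 0.05, and the points without 1 array run between 1.07 and 1.48, all above 0.

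In the KLRG1lo cells without Id2 or Bim, Fasl did not reach the KLRG1hi level except on 1 array. Its signal was 6.52 and 6.63 in Id2KO cells, 6.32 and 6.05 in Id2KOBimKO cells, and 6.38 and 7.81 in BimKO cells. BimKO array 2, at 7.81, lay within the range of the KLRG1hi arrays, while BimKO array 1 lay below all WT KLRG1lo arrays. The group means ordered as WT KLRG1hi (8.02 ± 0.42, n = 3), BimKO (7.09 ± 1.01, n = 2), WT KLRG1lo (6.72 ± 0.26, n = 5), Id2KO (6.57 ± 0.08, n = 2) and Id2KOBimKO (6.19 ± 0.19, n = 2), each with its SD. Among neighbours in this order, the ranges overlapped except those of Id2KO and Id2KOBimKO. A limma F test over the 5 groups passed for Fasl (adjusted p = 0.0200), as it did for 1.39% of genes tested. That call was lost without KLRG1hi array 2 and without Id2KOBimKO array 2.

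The Fasl signal in Id2KOBimKO cells lay below that in BimKO cells by -0.90 on the log2 scale (SE 0.35, 95% interval -1.64 to -0.16, limma unadjusted p = 0.0198), which did not pass after adjustment. That size rested on BimKO array 2: the difference was -0.19 without it and -1.62 without BimKO array 1. Both Id2KOBimKO arrays were also below all 5 WT KLRG1lo arrays, with a difference of -0.53 (SE 0.29, limma adjusted p = 0.785). Id2KO cells differed from WT KLRG1lo cells by -0.15 (SE 0.29, 95% interval -0.77 to 0.47, limma adjusted p = 0.724). The interaction, which tests whether the Id2 difference is unlike in the BimKO and WT backgrounds, was -0.76 (SE 0.46, limma adjusted p = 0.726). The interaction was -0.04 without BimKO array 2 and -1.47 without BimKO array 1.

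Markers of other cells were measured beside these values as the summed linear signal of marker lists. For B cells, 7 of 8 listed genes were on the array, and their sum was 240 to 317 in WT KLRG1hi cells, 309 to 364 in Id2KO cells, 406 to 648 in Id2KOBimKO cells, 312 and 1046 in BimKO cells and 336 to 983 in WT KLRG1lo cells. The BimKO array with the sum of 1046 was the one with the high Fasl signal. The WT KLRG1lo array with a sum of 983 had a Fasl signal of 6.66, within the range of the other WT KLRG1lo arrays. No listed B cell, monocyte and macrophage, neutrophil, dendritic cell, red cell precursor or CD4 T cell gene passed between WT KLRG1hi and WT KLRG1lo.

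NK cells also make Fasl, and the sum of the 7 NK cell genes on the array, of 8 listed, was 1187 to 2538 in WT KLRG1hi cells against 857 to 1163 in WT KLRG1lo cells. It was 811 to 943 in Id2KO, 837 to 865 in Id2KOBimKO and 776 to 1177 in BimKO cells. By array the sum was 1187, 1747 and 2538 in WT KLRG1hi cells, the order of their Fasl signals. BimKO array 2, with the high Fasl signal, had the sum of 1177. WT KLRG1lo array 2, the highest of its group for Fasl, had the sum of 1163. The Id2KO arrays went the other way, with sums of 943 and 811 where Fasl was 6.52 and 6.63. The order of the WT KLRG1hi arrays was shared: their CD8 T cell sums were 19589, 23858 and 27831. Dendritic cell and CD4 T cell sums rose in that order too, while B cell, neutrophil and red cell precursor sums fell. The interquartile range of log2 signal on these arrays was 2.44, 2.67 and 2.84. WT KLRG1lo array 2 also had the highest CD8 T cell sum of its group, 24269, and the widest such range, 2.82. Of the 4 NK cell genes tested, 3 had a positive difference in WT KLRG1hi over WT KLRG1lo, and the median of the 4 was 0.53. The 1 that passed was Klrb1c, at 2.92 (SE 0.29, limma adjusted p = 3.12e-05). Ncr1, a defining NK cell receptor, was dim, at 3.65 to 4.01 in WT KLRG1hi cells against 3.73 to 4.93 in WT KLRG1lo cells. The signal below which 40% of probe sets fell was 5.14 to 5.37 on these arrays, so Ncr1 lay in the dim part of every array. The 8 dendritic cell genes summed to 1401 to 2518 in WT KLRG1hi cells against 1158 to 1441 in WT KLRG1lo cells, and 0 of the 5 tested passed by limma. The part of these markers in the Fasl result was not tested.

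Tnfsf10 encodes TRAIL, a death ligand whose receptor in mice is encoded by Tnfrsf10b. Its signal was 7.05, 7.13 and 7.76 in WT KLRG1hi cells, against 7.07, 7.27, 6.55, 6.33 and 7.05 in WT KLRG1lo cells. Array 3 of the KLRG1hi cells was above all others, and the groups overlapped. The difference was 0.46 (SE 0.21, 95% interval 0.02 to 0.90, limma unadjusted p = 0.0433, adjusted p = 0.659), so it did not pass. The arrays of Id2KO cells read 7.13 and 7.14, those of Id2KOBimKO cells 6.91 and 7.08 and those of BimKO cells 7.11 and 6.82. These 6 arrays lay within the WT KLRG1lo range of 6.33 to 7.27. By mean the order was WT KLRG1hi (7.31), Id2KO (7.13), Id2KOBimKO (6.99), BimKO (6.96) and WT KLRG1lo (6.85), and Id2KO and Id2KOBimKO were the only neighbours whose ranges did not overlap.

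Fas, the receptor of Fasl, stood highest in the Id2KO, Id2KOBimKO and BimKO cells. Its signal was 7.85 and 7.59 in Id2KO cells, 7.79 and 7.43 in Id2KOBimKO cells and 7.44 and 7.38 in BimKO cells, against 6.99, 7.08, 7.24, 6.97 and 7.16 in WT KLRG1lo cells. All 6 arrays of the 3 knockout groups were above all 5 WT KLRG1lo arrays. The share of all genes with this joint pattern is not given, so the pattern does not set Fas apart. No difference passed after adjustment. The comparisons share the WT KLRG1lo arrays, so they do not stand for separate evidence.

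Against WT KLRG1lo cells, Fas differed by 0.63 in Id2KO cells (SE 0.23, 95% interval 0.15 to 1.11, limma unadjusted p = 0.0137, adjusted p = 0.275). The difference was 0.52 in Id2KOBimKO cells (SE 0.23, 95% interval 0.04 to 1.01, limma unadjusted p = 0.0350, adjusted p = 0.785). In BimKO cells it was 0.32 (SE 0.23, 95% interval -0.16 to 0.80, limma adjusted p = 0.682). These intervals share the WT KLRG1lo arrays, so they do not test the knockout groups against each other. Compared directly, Id2KOBimKO over BimKO gave 0.20 for Fas (SE 0.27, 95% interval -0.37 to 0.78, limma unadjusted p = 0.466). Non-overlapping groups were common here: 28.5% of genes tested in Id2KO against WT and 12.6% in each of the other pairs with WT.

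The spread of the signal differed between arrays and moved with the Fas values in some groups only. In WT KLRG1hi cells both rose from array 1 to array 3. In WT KLRG1lo cells array 3 had the lowest spread and the highest Fas signal, 7.24, and in Id2KO cells the array with the wider spread had the lower Fas signal. The interquartile range of log2 signal was 2.83 to 2.87 on Id2KO arrays, against 2.46 to 2.82 on WT KLRG1lo arrays. With that range as a covariate the Fas difference for Id2KO was 0.31, and the one for Id2KOBimKO was 0.38. Over the settings that kept all arrays, these differences reached up to 0.78 for Id2KO and 0.68 for Id2KOBimKO.

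The CD4 T cell marker list parted the knockout arrays from the WT KLRG1lo arrays as Fas did. The 8 genes, all on the array, summed to 1853 and 2296 in Id2KO cells, 1903 and 1830 in Id2KOBimKO cells and 1504 and 1797 in BimKO cells, against 1302 to 1501 in WT KLRG1lo cells. All 6 knockout arrays were above all 5 WT KLRG1lo arrays, as for Fas, and the WT KLRG1hi sums were lower, at 975 to 1373. Of the 8 genes, 5 had a positive difference in Id2KO over WT. The 1 that passed was Ctla4, an inhibitory receptor that activated CD8 T cells also make, at 1.38 (SE 0.25, limma adjusted p = 0.0306). The median of the 8 was 0.36 there, against 0.03 for all genes. Cd4 itself, the defining marker, was not higher, at 4.94 and 5.32 in Id2KO cells, 5.18 and 5.38 in Id2KOBimKO cells and 5.38 and 5.41 in BimKO cells, against 5.21 to 5.96 in WT KLRG1lo cells. The part of the other CD4 T cell genes in the Fas and Casp8 values was not tested.

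In WT KLRG1hi cells Fas varied more between arrays than in the other groups, with 6.27, 6.97 and 7.44 and a mean of 6.90 ± 0.59 (SD, n = 3), against 7.09 ± 0.12 in WT KLRG1lo cells (SD, n = 5). Its lowest and highest arrays lay on either side of the whole WT KLRG1lo range. The difference was -0.19 (SE 0.20, 95% interval -0.61 to 0.23, limma adjusted p = 0.978), and it was 0.12 without KLRG1hi array 1. By mean, Fas ordered as Id2KO (7.72), Id2KOBimKO (7.61), BimKO (7.41), WT KLRG1lo (7.09) and WT KLRG1hi (6.90). Only BimKO and WT KLRG1lo had separate ranges among neighbours.

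**Figure D2:**
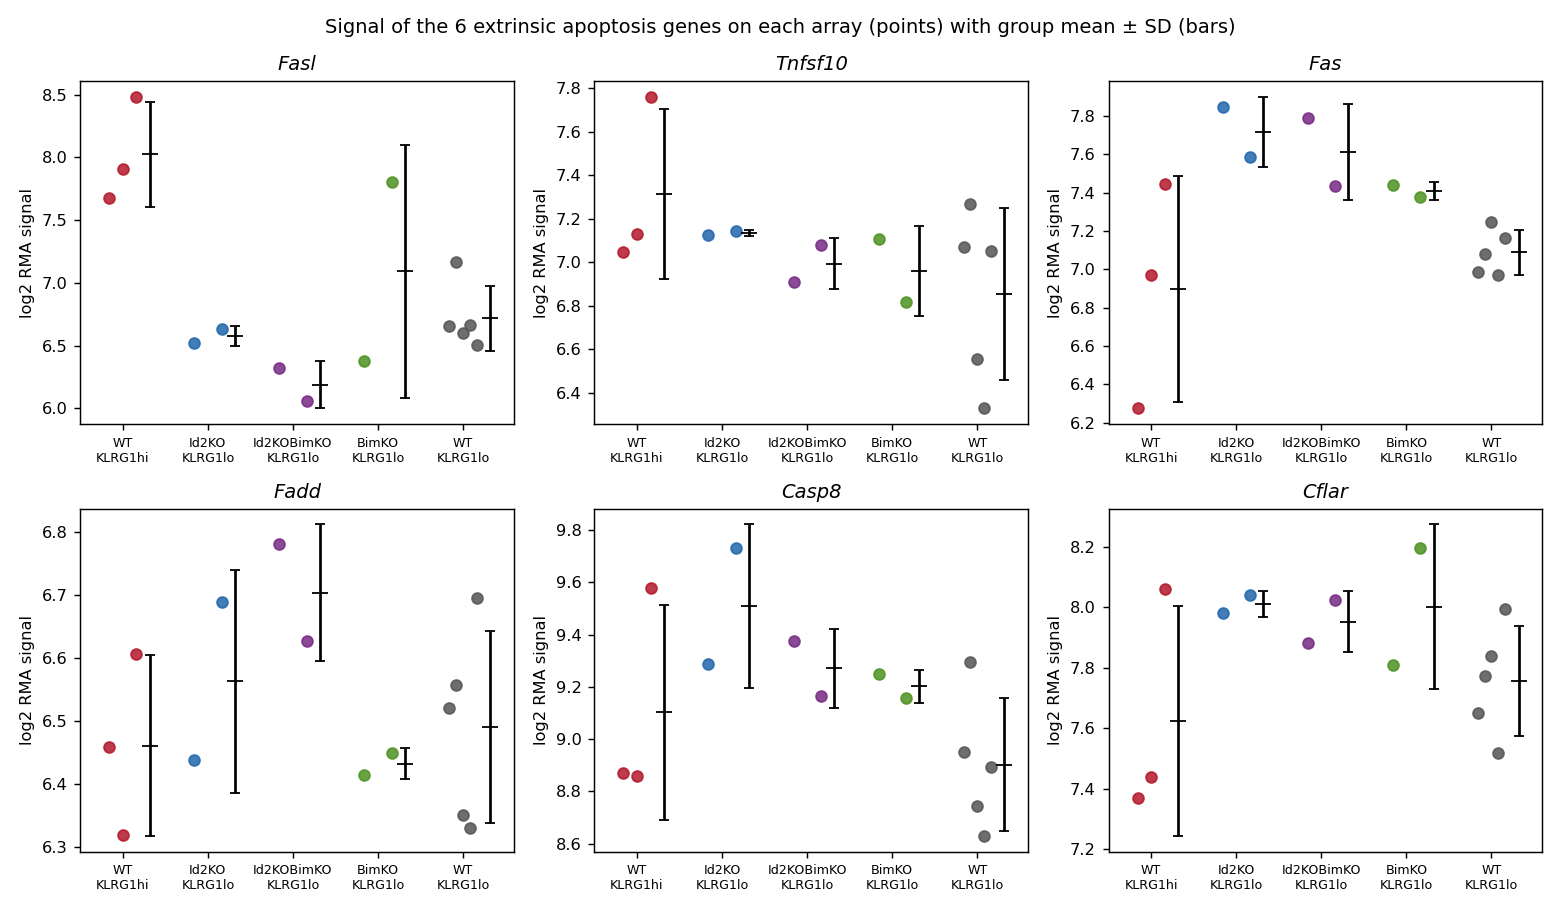
Log2 signal (y axis) of each of the 6 genes on each of the 14 arrays (points), by group (x axis), with the group mean ± SD. The 3 WT KLRG1hi arrays lie above the WT KLRG1lo arrays for Fasl, and the 6 knockout arrays lie above the WT KLRG1lo arrays for Fas.

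Fadd, the adaptor that joins the receptor to Casp8, varied least. It averaged 6.46 ± 0.14 in WT KLRG1hi (n = 3), 6.56 ± 0.18 in Id2KO (n = 2), 6.70 ± 0.11 in Id2KOBimKO (n = 2), 6.43 ± 0.02 in BimKO (n = 2) and 6.49 ± 0.15 in WT KLRG1lo cells (n = 5), each with its SD. Neighbouring ranges in the order of levels all overlapped. The Id2KOBimKO arrays, at 6.78 and 6.63, were above the BimKO arrays, at 6.41 and 6.45, with a difference of 0.27 (SE 0.19, 95% interval -0.12 to 0.67, limma unadjusted p = 0.164). In that comparison of 2 arrays with 2, 29.7% of genes tested had separate groups. For WT KLRG1hi over WT KLRG1lo the Fadd difference was -0.03, with a 95% interval of -0.32 to 0.26.

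Casp8 is the protease that starts the caspase cascade. Its signal was 9.29 and 9.73 in Id2KO cells, against 8.95, 9.30, 8.74, 8.63 and 8.90 in WT KLRG1lo cells. The lower Id2KO array lay just under the highest WT KLRG1lo array, so the groups overlapped. The difference was 0.61 (SE 0.22, 95% interval 0.15 to 1.06, limma unadjusted p = 0.0124, adjusted p = 0.275) and did not pass. It was 0.38 without Id2KO array 2, and 0.20 with the interquartile range of the array as a covariate.

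The other Casp8 values were 9.38 and 9.17 in Id2KOBimKO cells, 9.25 and 9.16 in BimKO cells, and 8.87, 8.86 and 9.58 in WT KLRG1hi cells. Against WT KLRG1lo cells the differences were 0.37 in Id2KOBimKO, 0.30 in BimKO and 0.20 in WT KLRG1hi cells, and the 95% interval of each includes 0. Id2KOBimKO over BimKO gave 0.07 (95% interval -0.48 to 0.61). In the order of means (Id2KO 9.51, Id2KOBimKO 9.27, BimKO 9.20, WT KLRG1hi 9.10, WT KLRG1lo 8.90) every group overlapped its neighbour.

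Cflar lies next to Casp8 on chromosome 1 in the RefSeq annotation, with 0 protein-coding genes between them. The brightest probe set that carries its symbol is 10497931, and where that probe set lies on the genome was not examined. Cflar probe sets 10346551 and 10346562 have numbers close to that of the Casp8 probe set, 10346564, and 10497931 does not. Probe set 10497931 read 7.37, 7.44 and 8.06 in WT KLRG1hi cells, 7.98 and 8.04 in Id2KO cells, 7.88 and 8.02 in Id2KOBimKO cells, 7.81 and 8.19 in BimKO cells, against 7.65, 7.77, 7.84, 7.52 and 7.99 in WT KLRG1lo cells. Every group overlapped its neighbour in the order of means. On probe set 10497931 the largest difference between any group and WT KLRG1lo was 0.26, for Id2KO cells (SE 0.20, 95% interval -0.16 to 0.67, limma adjusted p = 0.378).

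The 3 Cflar probe sets did not give 1 picture. Probe set 10346551 read 7.48, 7.22 and 7.93 in WT KLRG1hi cells, against 7.68, 7.81, 7.42, 7.30 and 7.37 in WT KLRG1lo cells, a difference of 0.03, where probe set 10497931 gave -0.13 (95% interval -0.49 to 0.23). Probe set 10346562 read 6.90, 6.48 and 7.41 in WT KLRG1hi cells, against 7.11, 7.08, 7.03, 6.80 and 7.29 in WT KLRG1lo cells. WT KLRG1hi and WT KLRG1lo cells overlapped on each probe set.

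In the knockout groups, probe set 10346551 read 7.99 and 7.85 in Id2KO cells, 7.64 and 7.97 in Id2KOBimKO cells and 7.40 and 7.94 in BimKO cells. Both Id2KO arrays were thus above all WT KLRG1lo arrays, with a difference of 0.40 (SE 0.21, limma adjusted p = 0.279), where probe set 10497931 gave 0.26 and overlapped. Probe set 10346562 read 7.54 and 7.19 in Id2KO cells, 6.87 and 7.48 in Id2KOBimKO cells and 7.42 and 7.43 in BimKO cells. There both BimKO arrays were above all WT KLRG1lo arrays, with a difference of 0.36 (SE 0.22, limma adjusted p = 0.659). No Cflar probe set passed in any comparison. Which transcripts each of these probe sets reads, and whether 10497931 lies at the Cflar locus, was not examined.

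Read over the 6 genes, 1 of 6 passed in WT KLRG1hi over WT KLRG1lo, and 2 of 6 had an unadjusted limma p under 0.05, against 7.20% of all genes tested. The median of the 6 differences was 0.08, and that of all genes was 0.002. The genes differed among themselves: Fasl and Tnfsf10, the ligands, had the highest differences, and Fas had the lowest.

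For loss of Id2, 0 of 6 genes passed by limma in Id2KO over WT, where 0.111% of genes tested passed. With unadjusted p under 0.05 there were 2 of 6 (Fas and Casp8), against 18.1% of all genes. The median difference of the 6 was 0.27, against 0.03 for all genes. In Id2KOBimKO over BimKO, 0 of 6 genes and 0% of genes tested passed by limma, and 1 of 6 (Fasl) had an unadjusted p under 0.05, against 1.81% of all genes. The median of the 6 was 0.05 there, against 0.03 for all genes.

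Averaged over both Bim backgrounds, the Id2 difference was 0.42 for Fas (SE 0.18, 95% interval 0.04 to 0.79) and -0.52 for Fasl (SE 0.23, 95% interval -1.01 to -0.04), each with a limma adjusted p of 0.620. Receptor and ligand thus had opposite signs, but 0 of 6 genes passed by limma, against 0.18% of genes tested. These were the 2 of 6 with an unadjusted p under 0.05, against 7.11% of all genes. For Fasl that mean was -0.17 without BimKO array 2 and -0.88 without BimKO array 1.

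Loss of Bim gave 0 of 6 calls by limma in BimKO over WT, where 0% of genes tested passed, and 0 of 6 with an unadjusted p under 0.05, against 6.91% of all genes. The differences ran from -0.06 (Fadd) to 0.37 (Fasl), with a median of 0.27, against -0.02 for all genes. The Fasl value turned to -0.34 without BimKO array 2 and was 1.09 without BimKO array 1. Loss of both genes gave 0 of 6 by limma in Id2KOBimKO over WT, against 0.0623% of genes tested, and 1 of 6 (Fas) with an unadjusted p under 0.05, against 3.95%. The median of the 6 was 0.21 there, against -0.002 for all genes. The interaction passed for 0 of 6 by limma, against 0.0277% of genes tested, and 0 of 6 had an unadjusted p under 0.05, against 4.27%. Its values ran from -0.76 (Fasl) to 0.20 (Fadd).

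**Figure D3:**
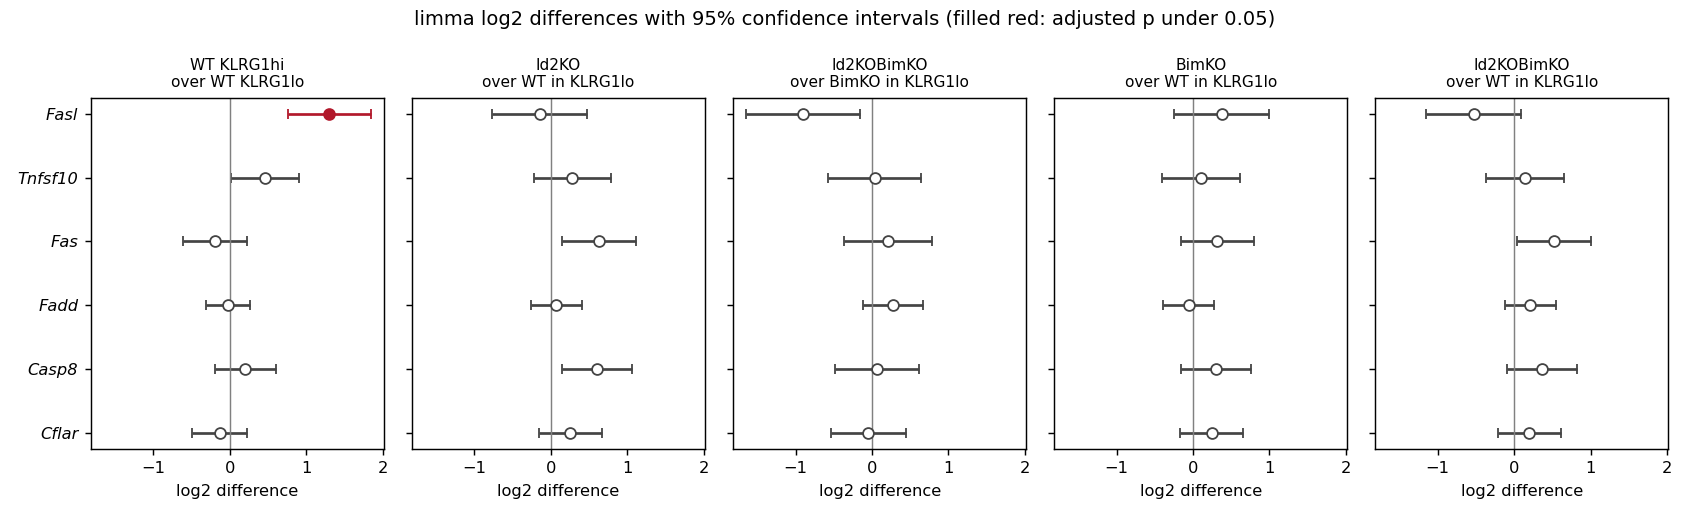
Limma log2 difference (x axis) with its 95% interval for each of the 6 genes (y axis), 1 panel for each of 5 comparisons. The filled red point, Fasl at 1.30 in WT KLRG1hi over WT KLRG1lo, is the one with an adjusted p under 0.05, and intervals of the other points reach as far as -1.64 and 1.11.

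A list of 42 other genes of the route put these values in context, and 37 of them were tested. Casp12 was too dim for the filter, and the other untested genes were not analysed here. In each of the 7 comparisons 0 of 37 passed by limma. In WT KLRG1hi over WT KLRG1lo, 18 differences were positive and 19 negative, with a median of -0.01 against 0.002 for all genes.

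The smallest unadjusted p in that comparison belonged to Tnf, a cytokine that can signal death through its receptor Tnfrsf1a. Its signal was 6.43, 6.49 and 5.79 in WT KLRG1hi cells, against 7.17, 7.27, 6.90, 6.88 and 6.74 in WT KLRG1lo cells. The Tnf arrays of the groups did not overlap and lay the opposite way round from those of Fasl. The Tnf difference was -0.75 (SE 0.19, limma adjusted p = 0.089), so it did not pass. Tnfrsf22, a decoy receptor for TRAIL in mice, read 6.42, 6.68 and 6.61 in WT KLRG1hi cells, against 6.90 to 7.22 in WT KLRG1lo cells. Its difference was -0.51 (SE 0.14, limma adjusted p = 0.11), also without overlap. Tnfrsf25, a death receptor of T cells, differed by -0.40 (SE 0.14, limma adjusted p = 0.358).

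In Id2KO over WT, 29 of the 37 differences were positive and 8 negative, with a median of 0.22 against 0.03 for all genes. The share of all genes with a positive difference is not given, here or below, so these counts do not set the list apart. In this comparison 18.1% of all genes had an unadjusted limma p under 0.05. The Id2KO arrays had the highest mean interquartile range, 2.85, and the list with that range as a covariate is not given. By role, the difference was positive for 11 of 11 genes of the mitochondrial link, inhibitors and execution (median 0.33), 5 of 5 caspases (median 0.40) and 10 of 11 adaptors, kinases and brakes (median 0.29). It was positive for 3 of 7 receptors and decoys (median -0.09) and 0 of 3 ligands (median -0.01). Diablo, which relieves the block on caspases, differed by 0.77 (SE 0.28), Faf1, which binds Fas, by 0.62 (SE 0.26), and Tradd, the adaptor of the Tnf receptor, by 0.55 (SE 0.21). In Id2KOBimKO over BimKO, 15 of 37 were positive, with a median of -0.02 against 0.03 for all genes. There Tradd differed by 0.45, Birc2, an inhibitor of apoptosis, by -0.44 and Tnfrsf25 by -0.24. For the mean Id2 effect 27 of 37 were positive, with a median of 0.06 against 0.02 for all genes. Tradd led at 0.50 (SE 0.16, limma adjusted p = 0.577), with Diablo at 0.50 (SE 0.22) and Tnfrsf25 at -0.28.

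In BimKO over WT, 26 of 37 differences were positive (median 0.08, against -0.02 for all genes). The smallest unadjusted p were those of Tnfrsf21 (DR6, a death receptor) at -0.47 (SE 0.17, limma adjusted p = 0.657), Faf1 at 0.58 and Birc2 at 0.51. In Id2KOBimKO over WT, 29 of 37 were positive (median 0.10, against -0.002 for all genes). There Tnfrsf10b, the TRAIL receptor, differed by -0.29, Faf1 by 0.45 and Tnfrsf25 by -0.26. The interaction was positive for 7 of 37 (median -0.18, against -0.02 for all genes), with Tnfrsf21 at 0.62, Birc2 at -0.81 and Faf1 at -0.75. None of these values passed by limma.

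**Figure D4:**
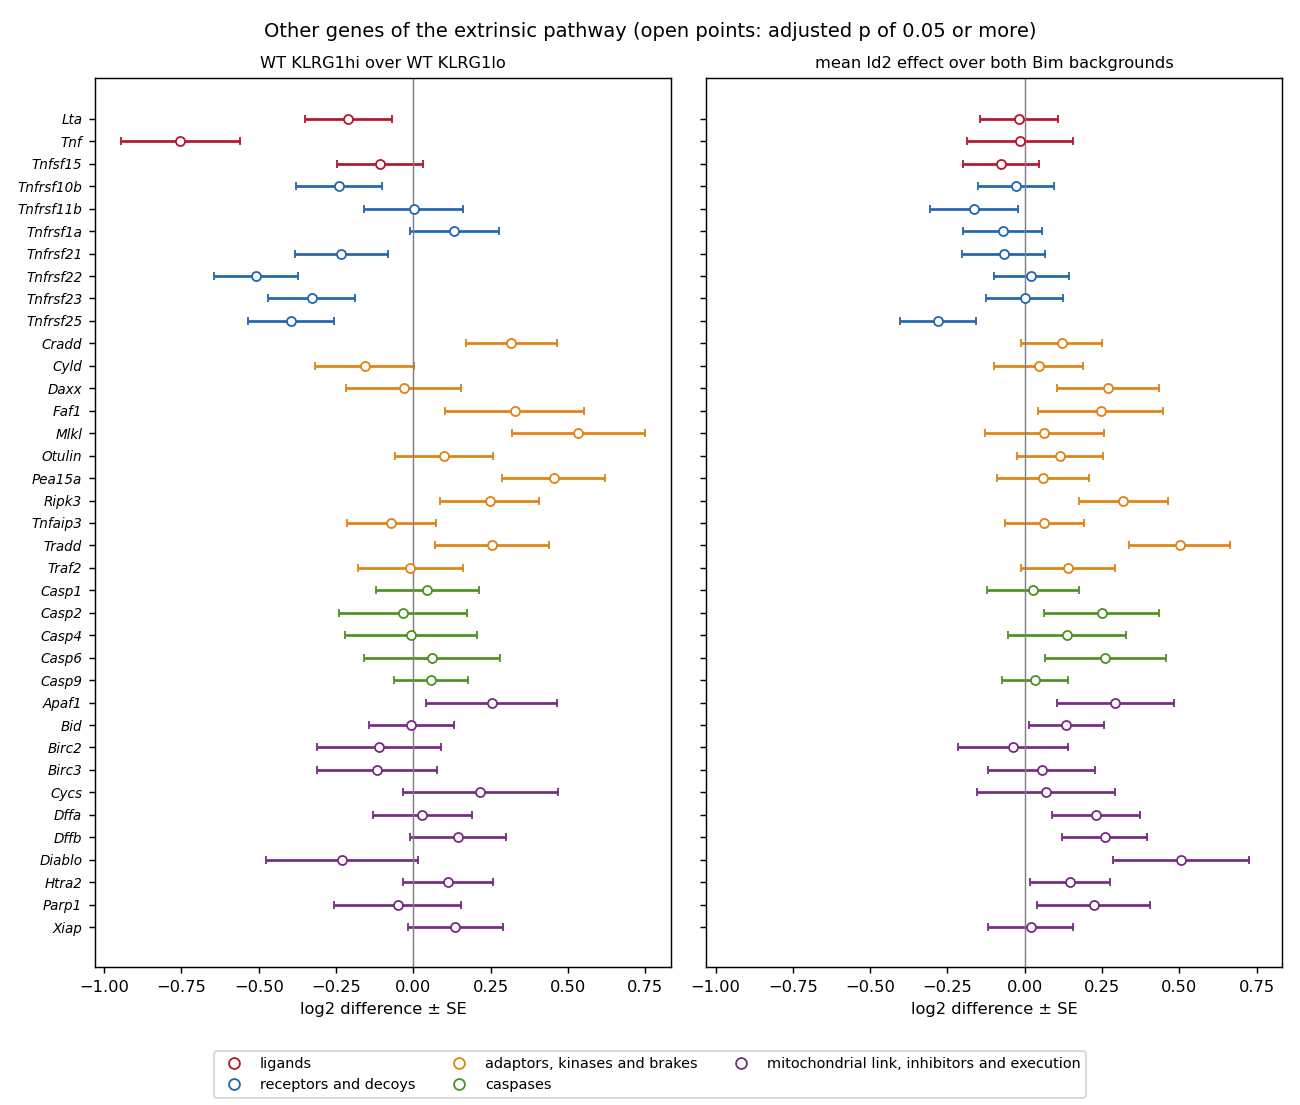
Limma log2 difference ± SE (x axis) of the other genes of the route (y axis, grouped by role) in WT KLRG1hi over WT KLRG1lo and for the mean Id2 effect. All points are open because 0 of 37 genes passed, and Tnf at -0.75 lies farthest below 0 in WT KLRG1hi over WT KLRG1lo.

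The genes whose signal over the 14 arrays was most like that of each gene were found by Pearson's r over all genes tested. They are a description, since the arrays share their groups and their spread of signal. For Fasl these were H2bc3 (r = 0.979) and H1f1 (r = 0.937), which encode histones, and Itga2 (r = 0.928), an integrin. H2bc3 read 7.73, 8.07 and 8.72 in WT KLRG1hi cells and 6.73 and 7.90 in BimKO cells, against 7.02, 7.40, 6.83, 7.06 and 7.06 in WT KLRG1lo cells. BimKO array 2 and WT KLRG1lo array 2 were thus the high arrays of their groups for H2bc3 as for Fasl. Histone genes form a family of near-identical copies, so the probe set may read several of them.

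For Tnfsf10 the nearest were Tubgcp2 (r = 0.901), Tax1bp1 (r = 0.889) and Slc2a3 (r = 0.885), a glucose transporter. For Fas they were Fut8 (r = 0.888), a fucosyltransferase, Adi1 (r = 0.885) and Mpp1 (r = 0.883). Fadd had the lowest values, with Ttc21b (r = 0.829), Nsmce2 (r = 0.825) and Nipal1 (r = 0.796). For Casp8 they were Selenot (r = 0.951), Glb1 (r = 0.951) and Atp11b (r = 0.946), and for Cflar they were Lats1 (r = 0.939), Slc35b3 (r = 0.926) and Ctso (r = 0.926). All of these r values are over 14 arrays.

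**Figure D5:**
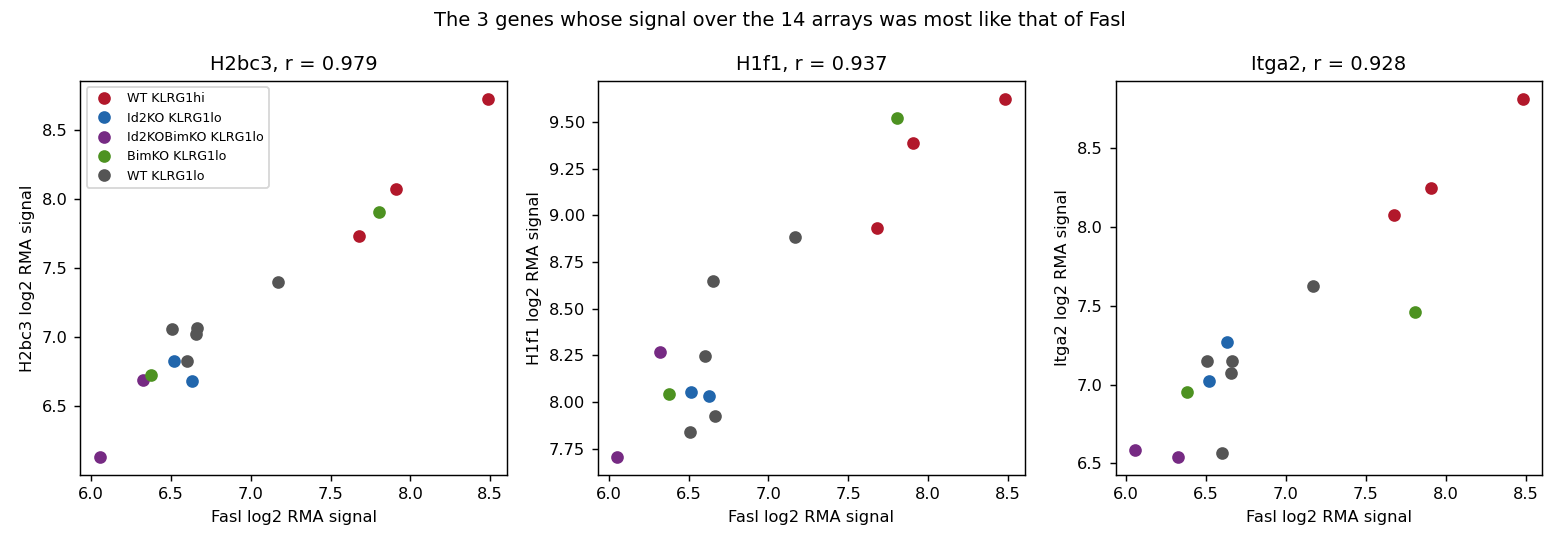
Log2 signal of H2bc3, H1f1 and Itga2 (y axes) against that of Fasl (x axis), 1 point per array and coloured by group. The WT KLRG1hi arrays, at Fasl signals of 7.68 to 8.48, lie at the upper right of each panel. BimKO array 2, at a Fasl signal of 7.81, lies within their range for H2bc3 and H1f1. For Itga2, at 7.46, that array lies below all WT KLRG1hi arrays, the lowest of which is at 8.08.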

How the data were processed

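Each of the 14 arrays was hybridised with RNA of 1 sort, extracted with TRIzol, amplified and labelled with biotin, per the labels. The deposited values are the authors' RMA intensity, not logged, of 34760 probe sets, with the RMA version not given and the build named as mm9 per the submitters' processing notes. The values were turned into log2 with no offset and no further normalization. Scanner files were not used here, so scale and centring against scanner values are unknown.

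Of the probe sets, 21640 carried 1 gene name, 1321 several and 11799 none, and 21553 names were updated through a RefSeq table. The probe set with the highest mean stood for a gene, and 14438 genes were tested, all 6 members among them, after a filter that asked for 2 arrays or more above their 40th percentile of signal. A model of the 5 group means over all 14 arrays was fitted in R 4.3.3 with limma (version 3.58.1; tables were read by data.table, version 1.17.8), with 9 residual degrees of freedom and 7.99 from the prior. Both directions were tested, with Benjamini-Hochberg adjustment over all genes tested and a threshold of 0.05. The fit was tested on simulated data.

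The members, the pathway list, the marker lists, the tests and the alternatives were chosen with earlier results of these data known. Named genes were the 6 members, any listed pathway gene that passed, up to 3 others per comparison with the smallest unadjusted p, and the 3 genes with the highest Pearson r with each member. The alternatives were other filters, quantile normalization, an offset of 16, a robust fit, the mean over probe sets, the replicate number as a block, fits restricted to the compared groups, the interquartile range as a covariate, each array left out in turn and, chosen after seeing the data, each other Cflar probe set.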

Additional observations from a re-analysis of the deposited data

Results flagged for a closer look

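Fasl in WT KLRG1lo array 2 stood apart from the rest of its group: its log2 signal was 7.17, while the other 4 arrays of the group lay between 6.51 and 6.66. It was still below the lowest WT KLRG1hi array, at 7.68. The same check was run on the 6 members and the listed pathway genes with the smallest unadjusted p in each comparison, some of them not named in the text. It covered 21 sets of WT KLRG1lo values in all, and chance alone flags about 1 in 20.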

How the results depend on the processing

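No gene of the 6 turned from not passing to passing under any setting run. Fasl in WT KLRG1hi over WT KLRG1lo passed in 8 of 9 settings that kept all arrays. The samples share only a replicate number: same-numbered WT KLRG1hi and WT KLRG1lo arrays, the groups with 3 such pairs, deviated with correlations of -0.18, 0.06 and -0.52. Over all 21 same-numbered pairs the correlations were -0.52 to 0.41, with 10 over 0.1, among them those of Id2KO with WT KLRG1lo (0.21 and 0.16). With the replicate block Fasl differed by 1.22 (limma adjusted p = 0.14), so members passing numbered 0 in that comparison and 0 over the 5 groups. Genes passing with the block were 42 in WT KLRG1hi over WT KLRG1lo, 5 in Id2KO over WT, 8 for the mean Id2 effect, 0 in Id2KOBimKO over WT and 99 over the 5 groups. Quantile normalization gave 225 genes in WT KLRG1hi over WT KLRG1lo and 1 in Id2KOBimKO over BimKO, and turned the mean Id2 effect on Cflar to -0.027. Fitting only the groups compared gave 78 genes in WT KLRG1hi over WT KLRG1lo and 26 in Id2KO over WT. The interquartile range as a covariate gave 376 genes in WT KLRG1hi over WT KLRG1lo, 4 in Id2KOBimKO over BimKO, 52 for the mean Id2 effect, 24 in Id2KOBimKO over WT and 426 over the 5 groups. It turned Tnfsf10 to -0.16 in Id2KO over WT, -0.055 in Id2KOBimKO over BimKO, -0.11 for the mean Id2 effect, -0.0018 in BimKO over WT, -0.056 in Id2KOBimKO over WT and 0.11 in the interaction. It also turned Fadd to -0.053 in Id2KO over WT, Casp8 to -0.014 in Id2KOBimKO over BimKO and Cflar to -0.017 for the mean Id2 effect. Cflar probe set 10346551 gave 0.026 in WT KLRG1hi over WT KLRG1lo and 0.14 in Id2KOBimKO over BimKO. The cause of these changes was not tested.

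With 1 array left out, members passing ran over 0 to 1 in WT KLRG1hi over WT KLRG1lo and 0 to 1 over the 5 groups. Genes passing ran over 45 to 179 in WT KLRG1hi over WT KLRG1lo, 4 to 39 in Id2KO over WT, 0 to 3 in Id2KOBimKO over BimKO, 13 to 36 for the mean Id2 effect, 0 to 8 in BimKO over WT, 0 to 15 in Id2KOBimKO over WT, 3 to 6 in the interaction and 85 to 385 over the 5 groups. Differences that turned sign ran, in WT KLRG1hi over WT KLRG1lo, over -0.47 to 0.12 for Fas, -0.10 to 0.042 for Fadd and -0.039 to 0.32 for Casp8, and in Id2KO over WT over -0.053 to 0.20 for Fadd. In Id2KOBimKO over BimKO they ran over -0.11 to 0.18 for Tnfsf10, -0.24 to 0.14 for Cflar and -0.038 to 0.17 for Casp8, and in BimKO over WT over -0.34 to 1.09 for Fasl and -0.040 to 0.25 for Tnfsf10. Where a group was left with 1 array, that array was assumed to vary like the other groups.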
